A study of Homo sapiens with 17 samples.

Results

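The regions described here are broad domains of trimethylated lysine 27 of histone H3 (H3K27me3) that neurons with and without UTX held in common. They were chosen by the lengths and positions of called peaks, as the peaks of the knockout (KO) H3K27me3 list that were at least 5000 bp long and overlapped a wild-type (WT) H3K27me3 peak by at least 1 bp. The rule took 566 of 10950 KO peaks, which is 5.17% of the peaks and 35% of the base pairs under them. Because the rule used the KO length and the WT overlap, both are given as descriptions without a test. UTX (gene symbol KDM6A) was knocked out in the established human embryonic stem cell line H9, whose cells were turned into neurons and collected at day 40. All groups shared the H9 background, the passage label P40 and the same differentiation through embryoid bodies and neural progenitors into medium with BDNF, GDNF, cyclic AMP and ascorbic acid. The groups were WT cells and 2 lines labelled UTX-/-, KO1 and KO2, and whether each line came from 1 clone was not given in the sources used here. H3K27me3 and H3K36me3 were profiled by ChIP-seq in 1 sample per line, with 1 peak list per mark and genotype, and polyA RNA was sequenced in 3 WT, 3 KO1 and 2 KO2 libraries.

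H3K27me3 is written by Polycomb repressive complex 2 and is known for covering the promoters of developmental regulators in cells that do not use them. It spreads over long stretches where such genes lie in clusters or in large CpG islands, which are stretches of DNA rich in the dinucleotide CG. UTX removes methyl groups from this lysine. H3K36me3 is laid down along transcribed gene bodies and is known to be found apart from H3K27me3.

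The sequences shown here are the 250 bases before the start sites of 5 genes whose starts lay inside the domains. HOXD13 and FOXC1 stand for domains that WT peaks covered almost wholly. PAX6, DMRTA2 and NR2E1 stand for domains of which WT peaks covered under 50%. They are RefSeq sequences of build GRCh38.p14, written 5′ to 3′ along the gene's strand, and the capitals mark each CG. The HOXD13 stretch is chr2:176092471-176092720, plus strand, 21 CG. The FOXC1 stretch is chr6:1609665-1609914, plus strand, 37 CG. The PAX6 stretch is chr11:31817962-31818211, minus strand, 22 CG. The DMRTA2 stretch is chr1:50423444-50423693, minus strand, 18 CG. The NR2E1 stretch, before the first of its start sites listed in the domain, is chr6:108165772-108166021, plus strand, 14 CG.
HOXD13: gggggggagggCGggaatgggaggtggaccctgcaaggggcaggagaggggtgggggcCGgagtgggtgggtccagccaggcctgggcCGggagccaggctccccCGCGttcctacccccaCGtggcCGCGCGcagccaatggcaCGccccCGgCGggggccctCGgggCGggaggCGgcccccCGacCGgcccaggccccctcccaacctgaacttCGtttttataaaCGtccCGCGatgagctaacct
FOXC1: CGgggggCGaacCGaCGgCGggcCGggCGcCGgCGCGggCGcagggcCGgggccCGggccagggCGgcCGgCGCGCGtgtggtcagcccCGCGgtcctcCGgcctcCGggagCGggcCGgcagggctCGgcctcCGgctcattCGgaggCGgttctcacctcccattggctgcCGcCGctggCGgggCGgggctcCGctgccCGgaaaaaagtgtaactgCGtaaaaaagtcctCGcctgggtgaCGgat
PAX6: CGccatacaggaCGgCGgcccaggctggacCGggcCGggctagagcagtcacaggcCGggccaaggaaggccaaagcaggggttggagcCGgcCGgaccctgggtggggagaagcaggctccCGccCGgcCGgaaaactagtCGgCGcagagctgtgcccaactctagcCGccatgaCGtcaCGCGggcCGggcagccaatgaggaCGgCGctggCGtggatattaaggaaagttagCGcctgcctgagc
DMRTA2: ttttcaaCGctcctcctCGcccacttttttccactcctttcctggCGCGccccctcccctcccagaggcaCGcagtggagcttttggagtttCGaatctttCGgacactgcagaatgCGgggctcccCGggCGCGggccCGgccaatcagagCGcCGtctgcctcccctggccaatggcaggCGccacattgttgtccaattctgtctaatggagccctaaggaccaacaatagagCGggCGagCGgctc
NR2E1: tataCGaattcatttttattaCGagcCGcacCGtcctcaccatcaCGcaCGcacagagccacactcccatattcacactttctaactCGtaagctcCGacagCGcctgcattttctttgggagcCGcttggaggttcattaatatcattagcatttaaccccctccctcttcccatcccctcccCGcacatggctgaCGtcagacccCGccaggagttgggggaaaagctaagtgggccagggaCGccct

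The domains also held 18 of the 1562 miRNA hairpins with a position in the RefSeq miRNA table. Those the results turn on are printed as mature RefSeq sequences, 5′ to 3′, with the seed (bases 2 to 8) in capitals. The first comes from MIR9-1, in a domain with little WT cover, and the others come from the HOX clusters.
miR-9-5p: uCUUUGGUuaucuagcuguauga
miR-196a-5p: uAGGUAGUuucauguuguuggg
miR-196b-5p: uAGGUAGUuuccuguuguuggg
miR-10a-5p: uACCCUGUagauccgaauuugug
The miR-196a and miR-196b sequences shared the seed AGGUAGU, while miR-9-5p and miR-10a-5p each had another seed.

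The H3K27me3 lists were called from 37.6 M KO tags and 22.4 M WT tags (M for mega), a ratio of 1.67, and each genotype's list had no replicate. The part of this gap in depth in the comparisons of length and fold was not tested. RNA libraries held 17.4 to 31.5 M estimated counts. KDM6A RNA was 35.2 to 36 CPM in WT and 25.9 to 40.8 CPM in KO, so its gene-level RNA does not check the labels. CPM are counts per M of the library total after TMM scaling between libraries. Summed CPM of 10 mesenchymal markers was 24308 to 62925 in KO1 replicate 2 and both KO2 libraries and 103 to 1636 in the other 5. Summed CPM of 10 neuron markers was 570 to 2391 in those 3 libraries and 3169 to 4854 in the others, and no marker of either list was at 0 in any library. Those 3 are called the high-collagen libraries below, since COL1A1 stood at 9226 to 27544 CPM in them and at 7.65 to 387 CPM elsewhere. They include both KO2 libraries, so fits without the 3 set KO1 replicates 1 and 3 against WT. Line and collagen level cannot be told apart in such fits. Whether each library was its own differentiation was not given in the labels, and p-values therefore reflect the spread of these libraries, which may be technical. In bulk samples, fewer cells of a type and less RNA per cell cannot be told apart.

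WT peaks covered nearly all of most domains. The 566 domains summed to 5.83 Mb in the KO list, and WT peaks covered 5.32 Mb of that, or 91.3%. In the 5890 shared KO peaks under 5 kb the same share was 78.5% of 8.53 Mb. The WT share of a domain had a median of 93.4% (quartiles 86% and 97.5%). It was 90% or more in 355 domains (62.7%), 100% in 33, under 75% in 53 and under 50% in 13. The KO list drew as 1 peak what the WT list often split: a domain overlapped a median of 2 WT peaks and at most 13, and 174 domains (30.7%) overlapped only 1.

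The rule turned around took the WT list as the starting set. Cover was counted only inside the peaks of the starting set, so a share cannot exceed the whole. There were 469 WT peaks of 5 kb or more that overlapped a KO peak, summing to 4.36 Mb, and KO peaks covered 98.1% of that length. Of these, 422 touched a domain, and 394 of the 566 domains were touched by them. KO cover was under 75% in 8 of the 469. WT peaks covered a smaller share of the domains, whose choice rested on the KO length, than KO peaks covered of the long WT peaks.

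**Figure D1:**
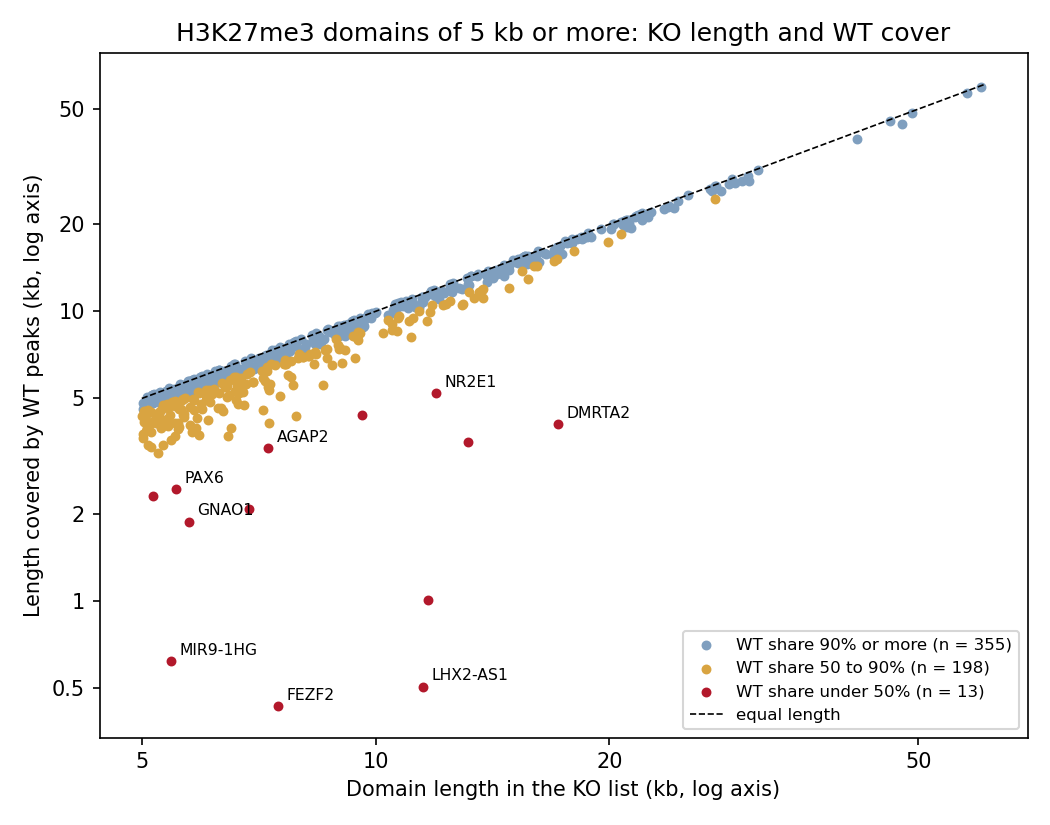
Each point is 1 of the 566 domains, with its KO length (kb, log axis) against the length that WT peaks covered (kb, log axis); the dashed line marks equal lengths. Most points lie on or just under the line, and the 13 red points, with a WT share under 50%, lie at KO lengths of 5.17 to 17.2 kb, named where a gene of the domain was described.

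Domain lengths ran from 5.01 to 60.3 kb with a median of 7.74 kb. The 5 shortest domains were 5009 to 5024 bp long with WT shares of 72.6% to 95.7%, and the 5 shared peaks just under the minimum were 4976 to 4992 bp long with WT shares of 82.5% to 100%. The median WT share was 90.6% in 298 domains of 5 to 8 kb, 93.4% in 125 of 8 to 12 kb, 96.1% in 94 of 12 to 20 kb and 97.5% in 49 of 20 kb or more. The lowest WT share among those 49 was 88.9%. All 49 held a gene start, against 76.8% of the 5 to 8 kb domains.

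The longest domain lay over the HOXC cluster (chr12:53977436-54037734), with HOXC4 to HOXC11 inside, and 99% of its 60.3 kb was covered in WT. HOX genes encode the homeodomain proteins that set position along the body axis. The HOXA domain (57.8 kb, chr7:27138369-27196197) was covered to 98.5%, the HOXD domain from EVX2 to HOXD9 (49 kb, chr2:176078182-176127196) to 99%, and the HOXB domain (46 kb, chr17:48590569-48636607) to 98.8%. Domains at GATA4, a regulator of heart and endoderm (47.7 kb), and HAND2, a regulator of heart and limb (41.7 kb), were covered to 93% and 94.8%. EN1 and EN2, which pattern the midbrain and hindbrain, had domains of 31.1 and 29.7 kb with WT shares of 99.1% and 95.4%. The other 4 of the 12 longest held TLX1, MNX1, PAX2 and GATA3, at 28.8 to 30.3 kb and WT shares of 93% to 100%.

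Summits were lower in the KO list than in the WT list at most domains. The fold enrichment over the control, which is the authors' own value per peak, averaged 12.9 ± 3.09 (SD over domains) in KO and 14.2 ± 3.94 for the highest WT peak of each domain. The KO over WT ratio had a median of 0.907 (quartiles 0.762 and 1.09) and was above 1 in 207 domains (36.6%). In the short shared peaks the median ratio was 0.828, and 28.4% were above 1. A WT peak counted for each domain it overlapped, wherever its summit lay, so a WT fold can come from outside the domain. These folds depend on each list's own depth and control, and there is no replicate, so the ratios describe the lists only.

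Folds were higher in longer domains in both lists, with medians of 12.3 in KO and 13.5 in WT at 5 to 8 kb and of 14.5 and 16.8 at 20 kb or more. The median ratio ranged over the length classes from 0.851 (20 kb or more) to 0.926 (12 to 20 kb). The KO fold was over 1.5 times the WT fold in 31 domains, and the WT fold was over 1.5 times the KO fold in 76. The widest ratio was 2.65 at MSC, a basic helix-loop-helix regulator (KO fold 16.9, WT fold 6.39). The lowest ratio was 0.336, in a domain on chromosome 4 with no gene start (KO fold 6.28, WT fold 18.7). HOXC was the longest domain and had a lower summit in KO (10.1) than in WT (19.1), whereas the HOXD domain had 17.7 and 17.5. The highest KO fold of all, 24.2, belonged to a 5.28 kb domain with no gene start (chr17:79839651-79844927), where the WT fold was 13. Domains at MAFA (21.2), LBX1 (20.9), ISL2 (20), FOXD3 (19.8) and IRX3 (19.6), all transcription factor genes, came next.

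**Figure D2:**
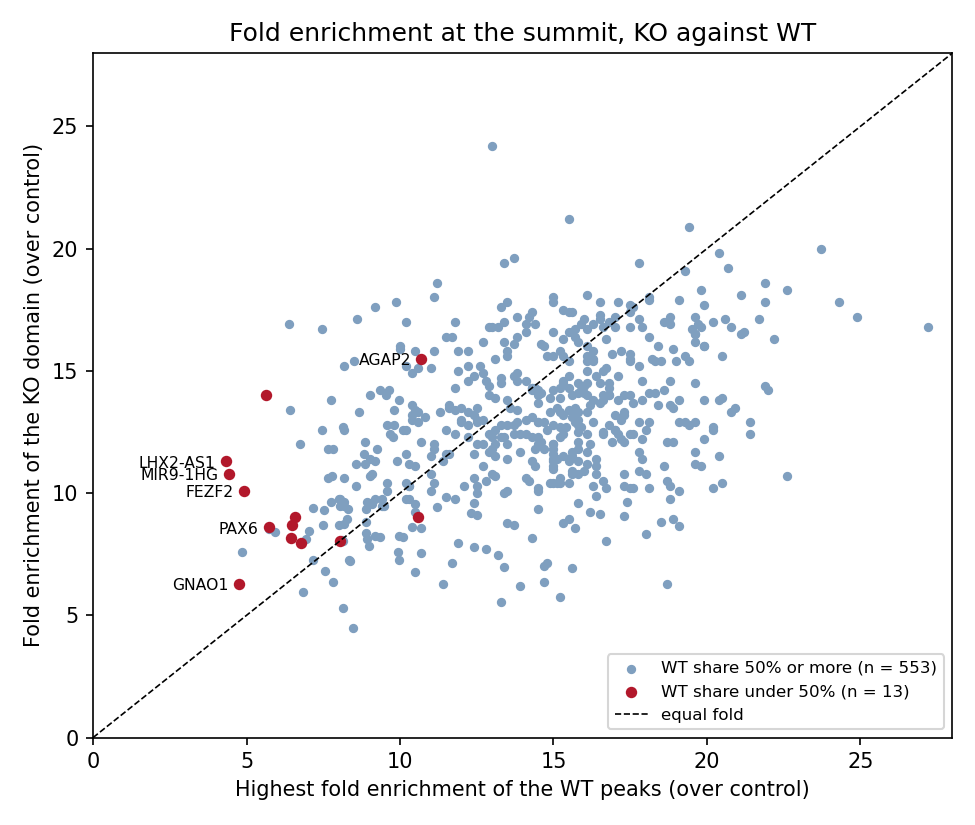
Fold enrichment over control of each KO domain against the highest fold of the WT peaks overlapping it. The 13 domains of WT share under 50% are in red and the other 553 in blue. The dashed line marks equal folds, and 12 of the 13 red points lie on or above it, while 195 of the 553 blue points lie above it.

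The 13 domains with a WT share under 50% included those at FEZF2, DMRTA2, NR2E1, PAX6 and MIR9-1. The lowest share was 4.39%, in an 11.5 kb domain at LHX2-AS1 (chr9:123999724-124011238). It lay beside a 7.73 kb KO peak over LHX2, a homeobox gene of the early forebrain, which overlapped no WT peak and so was no member. FEZF2, a zinc finger gene that specifies deep-layer cortical neurons, followed with 5.75% (7.49 kb, chr3:62366869-62374362). The MIR9-1 hairpin, which gives the miR-9-5p printed above, and its host gene MIR9-1HG lay in a 5.45 kb domain with 11.4% (chr1:156418707-156424154), and a neighbouring 11.7 kb domain with no gene start had 8.63%.

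DMRTA2, a doublesex-related factor of the dorsal telencephalon, had the longest domain of the 13, 17.2 kb with 23.8% (chr1:50414699-50431900). GNAO1, a G protein subunit abundant in brain, had 32.6%, NR2E1, a nuclear receptor of neural stem cells, 43.5%, and PAX6, a paired homeobox gene of cortical radial glia, 43.8% (5.53 kb, chr11:31813898-31819429). AGAP2, a GTPase-activating protein of neurons, had 46.3%. Others were a domain at LOC124900760 (30.1%) and one with no gene start (44.4%). KO folds in the 13 ran from 6.3 to 15.5 (median 9.04) against a median of 12.9 in the other 553, and WT folds from 4.33 to 10.7 (median 6.46) against 14.8. Their KO over WT ratio was above 1 in 12 of 13, although at NR2E1 both folds rounded to 8.04.

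In all, 571 KO peaks reached 5 kb, and 5 of them met no WT peak. These lay at MIR9-3 and MIR9-3HG (10.7 kb), at MIR9-2HG (6.77 kb), at LHX2, and at 2 places with no gene start. The 3 host genes of miR-9 were thus in KO peaks of 5 kb or more, and only the one of MIR9-1 shared its peak with the WT list.

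H3K36me3 peaks, which the rule did not use, were rare in the domains. In WT, 8 of 566 domains overlapped an H3K36me3 peak (1.41%), against 16 short shared peaks (0.272%). In KO, 1 domain did (0.177%), the one at LBX2, against 7 short shared peaks (0.119%). Longer regions have more room for an overlap, so shares of base pairs are given too. WT H3K36me3 peaks lay over 0.192% of domain base pairs and 0.0787% of those in short shared peaks. For KO H3K36me3 peaks the shares were 0.00408% and 0.0402%. Each genotype had 1 list, so these counts carry no spread between samples. The WT domains included those at DMRTA2, GP1BB and SEPTIN5, LBX2, FEZF2, ISLR2, LOC105371761 and MIR9-1. Of the 13 domains with a WT share under 50%, 4 overlapped a WT H3K36me3 peak (30.8%) and none a KO one, against 4 of the other 553 (0.723%).

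At DMRTA2, 2867 bp lay under WT H3K36me3 peaks and 0 of those under a WT H3K27me3 peak. At FEZF2 the figures were 1650 and 70 bp, and at MIR9-1 1458 and 619 bp. These stretches carried H3K36me3 in the WT list and H3K27me3 in the KO list, and those at FEZF2 and MIR9-1 still had some overlap of both marks in WT. The H3K36me3 lists differed in length as a whole, with 30144 WT and 8937 KO peaks. Of the WT H3K36me3 peaks 13.2% overlapped a KO one, so a KO peak was missing at most WT sites in general. The part of this difference in the 8 and 1 domains was not tested.

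Genes were assigned where their RefSeq start lay in a domain, or, where the promoter table held no start, either end. By this the domains held 755 of 59788 genes, among them 459 of 20052 protein-coding genes (2.29%), 234 long noncoding RNAs and 20 miRNA genes. A gene was present in 465 domains and absent from 101, and no domain held more than 13. Of 290 transcription factors in the 8 regulator lists, 183 (63.1%) started in a domain, and they lay in 164 domains (29%).

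HOX genes led, with 36 of 39, and the other 3 lay in shorter shared peaks. Homeobox genes outside the clusters had 73 of 99 inside, among them DLX, EMX, IRX, LHX, NKX and PAX members. T-box genes had 10 of 14, GATA factors 4 of 6 (GATA2, GATA3, GATA4 and GATA6), and forkhead genes 16 of 27. Basic helix-loop-helix genes had 22 of 42, zinc finger regulators 18 of 48, and SOX genes 4 of 15 (SOX7, SOX14, SOX17 and SOX18). The zinc finger list was mixed, as it also held TFAP2 genes and RUNX3, which are not zinc finger genes. Signalling ligands and antagonists of the WNT, BMP, FGF and SHH families had 15 of 55, including SHH, IHH, DHH and 8 WNT genes. Ion channel and transmitter genes had 15 of 68, among them GAD1 and GAD2, which make GABA, and the transporters SLC32A1 and SLC17A7.

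Few genes of other lists were inside. Of 34 genes for Polycomb proteins and H3K27 demethylases there were 2, CBX8 and EPOP. Of 7 cell cycle inhibitors there was 1, CDKN2A. Neuron markers had RBFOX3 alone and progenitor markers PAX6 alone, while no mesenchymal, astrocyte, pluripotency or epithelial marker started in a domain. These lists were chosen with the enrichment of such genes under H3K27me3 already known, so their counts describe the domains and are no independent evidence.

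**Figure D3:**
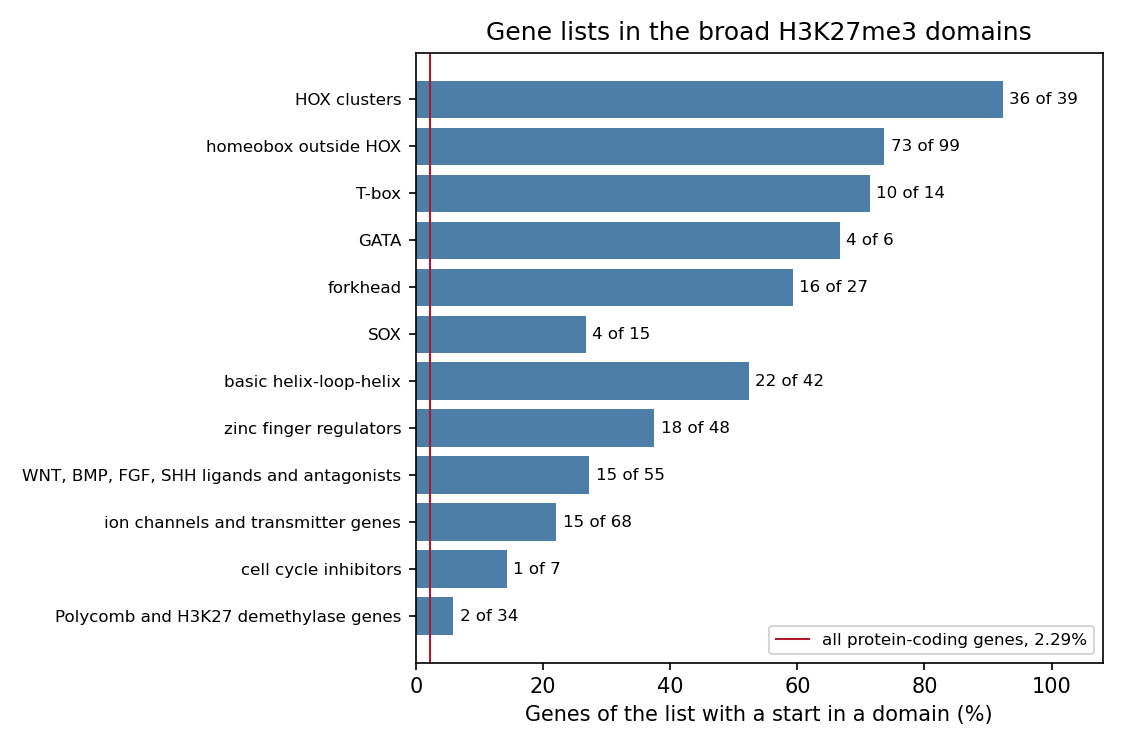
Share of each gene list (percent) whose members started in a domain, with counts at the bars; the red line marks 2.29%, the share of all protein-coding genes. The HOX bar reaches 92.3% and the Polycomb and demethylase bar 5.88%.

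Domains with listed regulators were long and well covered. The 16 domains with a HOX gene had a median length of 13.5 kb, a median WT share of 97.7% and a median KO over WT ratio of 0.876, with the KO fold below the WT fold in 11. The 73 with another homeobox gene had 14.6 kb, 97% and 0.862. The 16 forkhead domains had 14.8 kb, 97.7% and 0.858. Signalling domains were shorter (15 domains, 7.16 kb, 92.9%), as were those with channel and transmitter genes (14 domains, 6.59 kb, 89.5%). Domains without any gene start had 7.13 kb, 91.2% and 0.909.

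Start sites in the domains were rich in CG. Each window had 250 bases before and 50 after a RefSeq start, and the motif searched was CG, which reads the same on both strands. The 579 windows in domains held a median of 24 CG (quartiles 16 and 33) at 66% GC, with an observed over expected CG ratio of 0.792. All 35116 windows had a median of 14 CG, 58.7% GC and a ratio of 0.579. At least 1 CG was found in 99.7% of domain windows and in 96% of all windows. Windows with over 50% GC and a ratio over 0.6 made up 75.6% of domain windows and 46.9% of all.

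Short shared peaks were like the domains in this respect (27 CG, 69% GC, 75.1%), whereas start sites in KO peaks with no WT overlap had 16 CG and 50.9%. The 12 windows in domains with a WT share under 50% had a median of 24 CG, the same as the domains as a whole. Among the printed genes, the whole windows held 40 CG at FOXC1, 24 at HOXD13, PAX6 and DMRTA2, and 17 at NR2E1.

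The miRNA hairpins followed their host regions. MIR196A2 and MIR615 lay in the HOXC domain, MIR196B in the HOXA domain, MIR196A1 in the HOXB domain, MIR10A in a domain with HOXB4 and MIR10B in one with HOXD3 and HOXD4. WT shares of these domains were 97.6% to 99%. MIR129-2 had 83.1% and MIR375 93.4%. MIR9-1, at 11.4%, had the lowest share of the 18 hairpins. MIR124-1 and MIR124-3 also lay in domains by the RefSeq gene positions but were not among the 18, and their domains had 61.8% and 96%.

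RNA gave a readout that the rule did not use. Of the 755 genes, 583 were in the RNA table and 331 of those passed the filter on low counts (56.8%, against 30.9% of all 60199 symbols), while 78 had no count in any library. The 252 that failed the filter are not covered by the values below, and a gene could pass through 1 group alone. With edgeR's quasi-likelihood test over 18614 genes, KO against WT gave 0 calls at a false discovery rate (FDR) of 0.05, a background of 0%, and the smallest adjusted p of a domain gene was 0.243. At an unadjusted p under 0.05, 50 domain genes were higher in KO (15.1%, background 11.5%) and 21 lower (6.34%, background 6.45%).

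DESeq2, run as the other tool, called 36 of 492 domain genes higher (7.32%, background 2.84%) and 11 lower (2.24%, background 0.68%). Without the 3 high-collagen libraries it called 7 of 490 higher (1.43%, background 0.486%) and 9 lower (1.84%, background 0.305%), and only 3 of the 16 were among the 47 called before. All 5 KO libraries were above all 3 WT libraries in 16 domain genes (4.83%, background 6.29%) and below in 11 (3.32%, background 6.16%). The median log2 fold change of the 331 was 0.10, against -0.01 over all genes, and it was -0.19 over the 313 of them still tested without the 3 high-collagen libraries. The median changed sign when those libraries were left out. Set against the WT mean on the log2 CPM scale, single libraries had medians of 0.03, -0.49 and -0.13 in KO1 replicates 1 to 3. In KO2 they were 0.49 and -0.10, and the SD over the 5 KO libraries was 0.35. The 3 high-collagen libraries thus had medians of both signs.

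In the domains with a WT share under 50%, the 8 genes that passed the filter had negative log2 fold changes in edgeR's fit, with a median of -1.37, or -0.49 without the 3 high-collagen libraries. Of the 22 tested genes in domains with a WT share under 75%, which include those 8, 20 were negative (median -1.03, and -0.39 without the 3). Positive log2 fold changes were found in 49.4% of all genes tested and in 53.5% of tested domain genes. In domains with a WT share of 90% or more, 96 of 218 were negative, with a median of 0.27 that turned to -0.26 without the 3. None of the 8 passed the edgeR or the DESeq2 threshold in the full set of libraries.

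PAX6 stood at 325, 327 and 424 CPM in WT replicates 1 to 3, at 210, 17.7 and 287 CPM in KO1 and at 11.6 and 122 CPM in KO2. All 5 KO libraries lay below all 3 WT libraries, and the lowest 3 were the high-collagen ones. Its log2 fold change was -1.47 ± 0.92 (SE, edgeR adjusted p = 0.39), and -0.52 without those 3 libraries. NR2E1 stood at 84.7, 105 and 134 CPM in WT, at 40.1, 2.08 and 68.3 CPM in KO1 and at 0.0896 and 34.2 CPM in KO2. The groups did not overlap here either, and KO2 replicate 1 was almost without NR2E1 RNA. The log2 fold change was -1.89 ± 1.25 (SE, edgeR adjusted p = 0.411), and -0.98 without the 3 libraries (edgeR adjusted p = 0.518).

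GNAO1 stood at 226, 256 and 198 CPM in WT, at 133, 25.4 and 177 CPM in KO1 and at 73.9 and 75.9 CPM in KO2. The groups did not overlap, and its log2 fold change was -1.23 ± 0.50 (SE, edgeR adjusted p = 0.269), or -0.55 without the 3 libraries.

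In FEZF2, DMRTA2, MIR9-1HG and AGAP2 the groups overlapped. FEZF2 stood at 227, 107 and 60.5 CPM in WT, at 129, 3.76 and 137 CPM in KO1 and at 0.0448 and 46.9 CPM in KO2. Only the 3 high-collagen libraries were below WT, and its log2 fold change of -1.05 ± 1.42 (SE, edgeR adjusted p = 0.479) became 0.02 without them. DMRTA2 had 118 to 261 CPM in WT, 98.2 and 191 CPM in KO1 replicates 1 and 3, and 7.41, 0.0896 and 62.4 CPM in the 3 high-collagen libraries. MIR9-1HG, listed as C1orf61 in the RNA table, ran from 184 to 835 CPM in WT and from 22.9 to 430 CPM in KO. AGAP2 ran from 58.5 to 85.5 CPM in WT and from 22.2 to 60.1 CPM in KO. Among the KO libraries these genes were lowest in the 3 high-collagen ones, where the neuron sum was lower and the mesenchymal sum higher. Within those 3, KO2 replicate 1 had the highest neuron sum (2391) and the lowest mesenchymal sum (24308). FEZF2, DMRTA2 and MIR9-1HG were nevertheless lowest there, and AGAP2 in KO1 replicate 2. Summed CPM of 6 neural progenitor markers was 5366 in KO1 replicate 2, 3099 and 5562 in KO2, and 3403 to 4090 elsewhere. The part of these marker sums in the lower values was not tested.

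**Figure D4:**
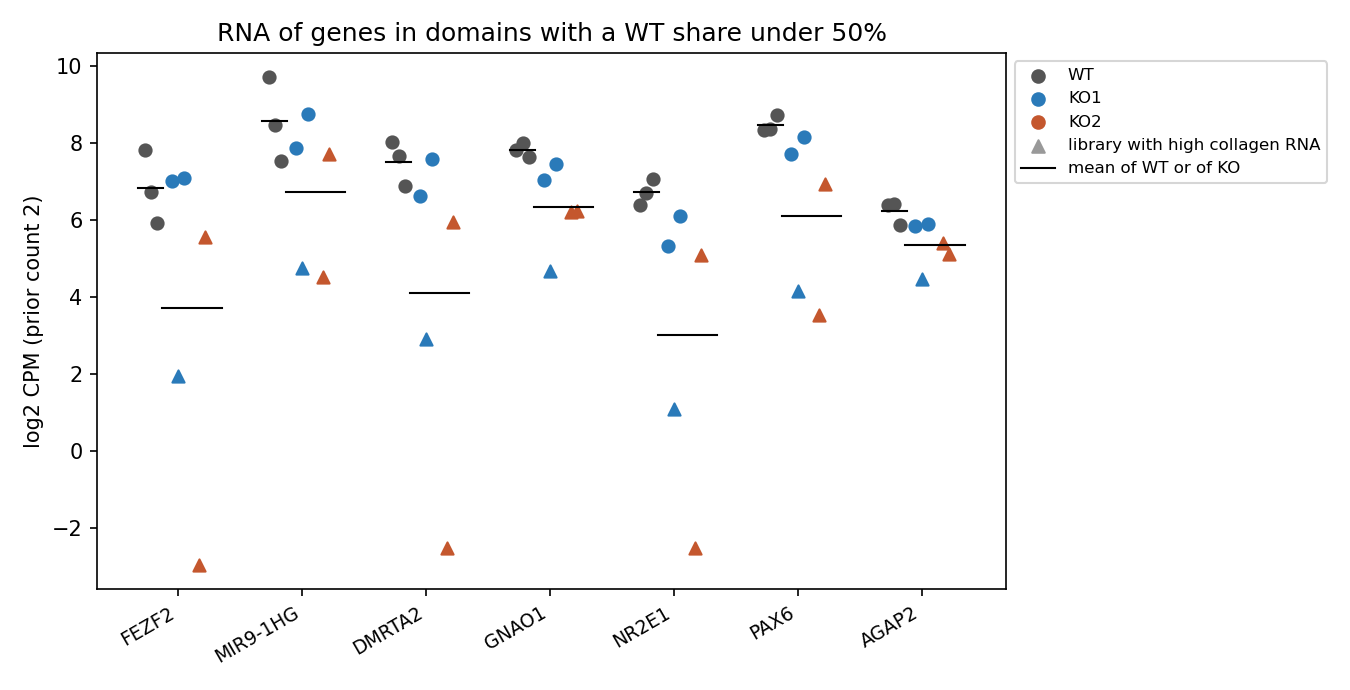
RNA level (log2 CPM with a prior count of 2) of 7 tested genes in domains with a WT share under 50%, 1 point per library, with WT in grey, KO1 in blue and KO2 in orange, triangles for the 3 high-collagen libraries and bars for the mean of WT and of KO. For GNAO1, NR2E1 and PAX6 every KO point lies under every WT point, and the triangles hold the lowest KO values for all 7 genes.

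CDKN2A went the other way, in a domain that both lists held. The gene encodes the cell cycle inhibitors p16 and ARF, and its 5.16 kb domain (chr9:21973017-21978174) was covered to 99.8% in WT, with folds of 9.62 in KO and 8.18 in WT. The adjoining 8.99 kb domain at CDKN2A-AS1 (chr9:21963955-21972944) was covered to 99% in WT. Its folds were 15.2 in KO and 8.18 in WT, a ratio of 1.86. The WT value is the same as at the CDKN2A domain, and whether 1 WT peak gave both was not checked. CDKN2A RNA stood at 0.203, 0.137 and 0.0536 CPM in WT (5, 4 and 1 estimated counts), at 3.28, 1.4 and 0.852 CPM in KO1 and at 2.19 and 2.38 CPM in KO2. Every KO library was above every WT library, the high-collagen ones no more so than KO1 replicate 1. The log2 fold change was 3.85 ± 0.62 (SE, edgeR adjusted p = 0.243), and DESeq2 called it (adjusted p = 5.19e-06). It was called by DESeq2 with any 1 library left out (adjusted p at most 0.00117) and without the 3 high-collagen libraries (adjusted p = 0.00698). Reads of CDKN2A and of overlapping antisense RNA cannot be told apart where the counting did not use strand, and the use of strand was not given in the sources used here.

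Of the 47 DESeq2 calls, 14 held with any 1 library left out, 12 higher and 2 lower. How many calls over all genes held in this way was not counted, so the 14 describe these genes only. The fold changes given for EPAS1, GATA2 and GP1BB are DESeq2's, and edgeR gave each an adjusted p of 0.243. EPAS1, a hypoxia-inducible factor, stood at 2.31, 3.57 and 1.34 CPM in WT, at 9.8, 8.64 and 6.2 CPM in KO1 and at 18.6 and 11 CPM in KO2. All KO libraries were above WT, with a log2 fold change of 2.17 ± 0.45 (SE, DESeq2 adjusted p = 0.000258, and 0.0319 without the 3 libraries). Its domain had a WT share of 86% and a KO over WT fold ratio of 0.737.

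GATA2, a regulator of blood and of some neurons, stood at 0.284, 0.823 and 1.13 CPM in WT, at 2.48, 47 and 1.62 CPM in KO1 and at 48.2 and 24.9 CPM in KO2. KO libraries were all above WT and the 3 high-collagen ones far above the other 2, with a log2 fold change of 5.09 ± 1.01 (SE, DESeq2 adjusted p = 0.000112, and 0.493 without the 3). TBX2, a T-box repressor, ran from 0.107 to 0.206 CPM in WT and from 0.606 to 6.49 CPM in KO, with a DESeq2 adjusted p of 0.00125, and 0.279 without the 3. Other higher calls of the 14 were LINC00960, PTHLH, WNT11, FOXC2, FLI1, MKX and GATA2-AS1. Antisense GATA2-AS1 and GATA2 may share reads for the same reason as CDKN2A.

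Most of the genes called higher followed the high-collagen libraries. Of 33 such genes that edgeR also tested, 24 were higher in all 3 high-collagen libraries than in both other KO libraries. The same share over all genes called higher is not given here, so the count describes these genes only. ALX4, a homeobox gene of craniofacial mesenchyme, stood at 2.19, 0.171 and 8.21 CPM in WT, at 2.32, 254 and 2.91 CPM in KO1 and at 73 and 129 CPM in KO2. FOXC2, a forkhead gene of mesoderm and vessels, ran from 0.206 to 1.29 CPM in WT and stood at 62, 16.2 and 24.7 CPM in the 3 libraries and at 0.606 and 0.94 CPM in the other KO libraries. SALRNA1, with the largest DESeq2 log2 fold change, had 0 counts in all 3 WT libraries and in KO1 replicate 1, and 96, 49 and 49 counts in the 3. Among the 12 largest by DESeq2 were SALRNA1, LINC01391, HPSE2, GATA2-AS1, SENCR, MKX, KLF2, GDNF, SIX6, GSC and FLI1. All of these but LINC01391, SENCR and SIX6, which edgeR did not test, were highest in KO1 replicate 2. KO1 replicate 2 also had the highest mesenchymal marker sum, and the part of mesenchymal cells in the change was not tested. In KO2 replicate 1, also a high-collagen library, HPSE2 had 11 counts, near the 8 of KO1 replicate 3. GSC had 23 counts there, as in KO1 replicate 1.

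Among the 11 lower calls, GP1BB and PRMT8 held with any 1 library left out. GP1BB, a platelet glycoprotein gene next to SEPTIN5, stood at 5.03, 8.98 and 6.49 CPM in WT, at 1.92, 2.02 and 2.14 CPM in KO1 and at 1.61 and 3.52 CPM in KO2. All KO libraries were below WT, with a log2 fold change of -1.60 ± 0.34 (SE, DESeq2 adjusted p = 0.000529, and 0.00138 without the 3 libraries). Its reads may include the SEPT5-GP1BB readthrough. PRMT8, a brain arginine methyltransferase, ran from 4.98 to 7.45 CPM in WT and from 1.73 to 3.38 CPM in KO (DESeq2 adjusted p = 0.00115, and 0.161 without the 3).

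The other lower calls were HOXB8, HOXC5, LBX1, LBX1-AS1, SLC32A1, WNT7A, PROX1-AS1, GRIK3 and RNF220, with DESeq2 log2 fold changes from -0.45 (RNF220) to -4.08 (HOXB8). SLC32A1, the vesicular GABA transporter, had 1.54, 18.3 and 15.3 CPM in WT and 1.23 to 4.67 CPM in KO. LBX1, a homeobox gene of spinal interneurons, had 2.51, 17.5 and 22.1 CPM in WT and 0.0881 to 2.78 CPM in KO. In both, WT replicate 1 lay within the KO range, so the groups overlapped.

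Most tested HOX genes had negative log2 fold changes, more so without the high-collagen libraries, which left KO1 replicates 1 and 3 and no KO2 library. Of the 36 HOX genes in domains, 14 passed the filter, and 11 of those were negative (median edgeR log2 fold change -1.68, and -2.94 without the 3 libraries). HOXC5 and HOXB8 were called lower by DESeq2 with all libraries, while HOXD4, HOXD3, HOXB2 and HOXB3 were not, but were called lower without the 3. Leaving out KO2 replicate 1 alone also gave calls for HOXB2 (DESeq2 adjusted p = 9.74e-07) and HOXB3 (DESeq2 adjusted p = 0.000623). The HOXC5 call was lost without WT replicate 2 (DESeq2 adjusted p = 0.0899) or WT replicate 3 (0.191). The HOXB8 call was lost without WT replicate 2 (DESeq2 adjusted p = 0.699), KO1 replicate 2 (0.137) or KO2 replicate 2 (0.0702). HOXC5 stood at 0.324, 4.59 and 7.99 CPM in WT, at 0.101, 0.449 and 0 CPM in KO1 and at 0.493 and 0.248 CPM in KO2. HOXD3 stood at 2.59, 11.4 and 24.4 CPM in WT, at 0.404, 5.05 and 0.235 CPM in KO1 and at 4.08 and 5.6 CPM in KO2. KO1 replicates 1 and 3 were the lowest for HOXD3, and the DESeq2 log2 fold change was -2.04 with all libraries (adjusted p = 0.219) and -5.34 without the 3 (adjusted p = 0.000671).

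HOXB3 stood at 59.9, 139 and 171 CPM in WT, at 35.1, 30.4 and 18.1 CPM in KO1 and at 215 and 36.7 CPM in KO2. All KO libraries but KO2 replicate 1 were below WT. Its DESeq2 log2 fold change was -0.87 with all libraries (adjusted p = 0.54) and -2.22 without the 3 (adjusted p = 0.000208). HOX levels also differed widely within WT, where replicate 1 was the lowest for HOXB2, HOXB3, HOXB8, HOXC4, HOXC5, HOXD3 and HOXD4. The domains of these genes had WT shares of 73.2% (HOXB2) to 99%, and KO over WT fold ratios of 0.521 to 0.922.

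**Figure D5:**
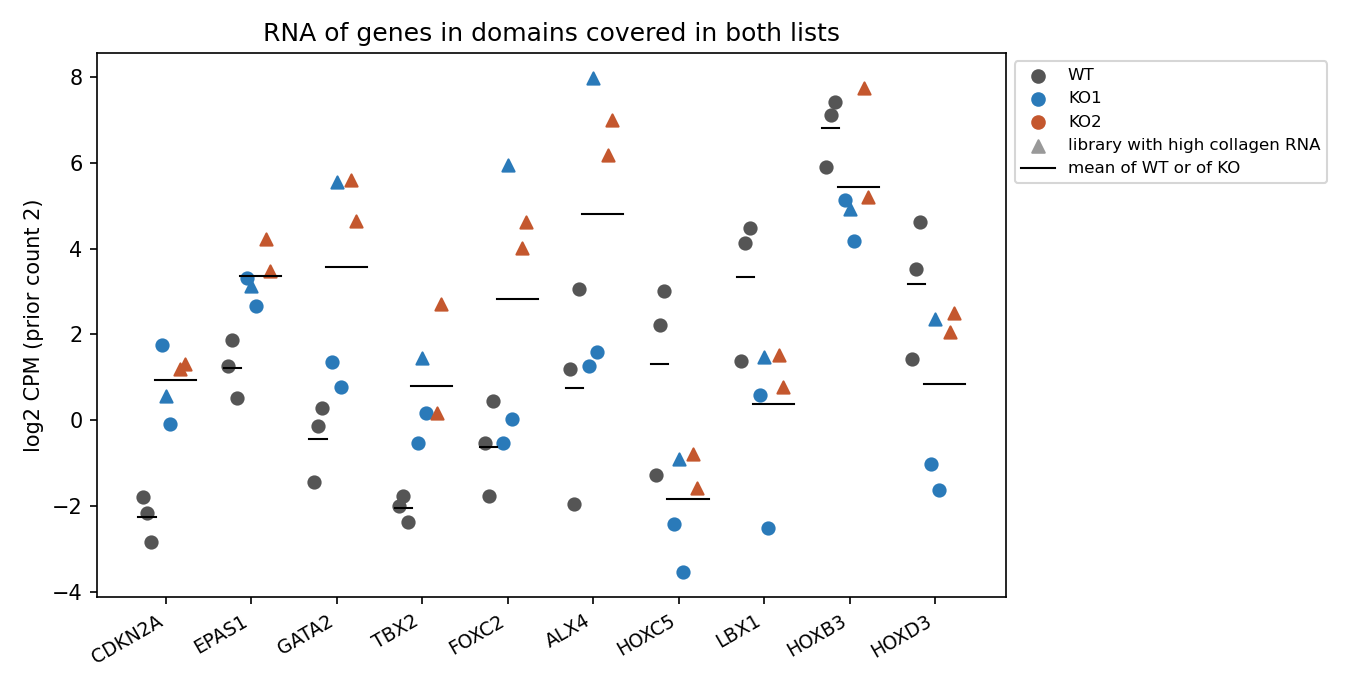
RNA level (log2 CPM with a prior count of 2) of 10 genes from domains with WT shares of 86% to 99.8%, 1 point per library, with colours, triangles and bars as in the plot of the poorly covered domains. CDKN2A, EPAS1, GATA2 and TBX2 have every KO point above every WT point, FOXC2 and ALX4 are highest in the triangles, and HOXC5, LBX1, HOXB3 and HOXD3 have most KO points low.

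Across the lists, the tested domain members of other families split by library. Of 52 homeobox genes outside HOX, 27 were positive and 25 negative (median edgeR log2 fold change 0.02), with 4 DESeq2 calls, all higher. Without the 3 high-collagen libraries their median was -0.41, over the 50 still tested. Forkhead genes were positive in 9 of 10 (median 3.08), and the median was 0.21 over 9 without the 3 libraries. T-box genes had medians of 3.82 and 0.38 over 5 members. GATA genes had a median of 3.40 over 3, and without the 3 libraries the 2 still tested went opposite ways, GATA2 at 1.46 and GATA3 at -2.84. The mixed list of zinc finger, TFAP2 and RUNX3 regulators had 10 of 14 negative (median -1.01, and -0.41 over 13 without the 3). Basic helix-loop-helix genes had 8 of 15 negative, with a median of -0.72 that turned to 0.06 over 12 without the 3. Signalling genes had 7 of 9 positive, with a median of 1.00 that turned to -0.45 without the 3, and DESeq2 called WNT11 higher and WNT7A lower. Channel and transmitter genes had 9 of 13 negative (median -0.76, and -0.28 without the 3), with SLC32A1 and GRIK3 called lower by DESeq2. CBX8 and EPOP had log2 fold changes of -0.01 and 0.09.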

How the data were processed

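Per the submitters' processing notes, ChIP reads were aligned with Bowtie2 2.4.1 to GRCh38 and RNA was quantified with Salmon 1.1.0 and tested with DESeq2 1.26.0. The authors' peak calls came from MACS2 2.2.7.1 with a q-value limit of 0.01 against a control, per the file headers, keeping 1 tag per position and joining gaps up to 50 bp. The deposited lists give each peak's length in bp, the fold ratio over control at the summit and the −log10 q-value. The KO header names 1 treatment alignment, and whether it merged both KO lines was not given in the sources used here. In the deposited RNA table the values are the authors' estimated counts per gene symbol, not normalized, and they were rounded.

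Cover and overlap were computed in bp. Genes came from RefSeq tables of GRCh38.p14 and were matched to RNA by symbol or synonym. RNA was tested with edgeR 4.0.16 (R 4.3.3, filterByExpr, TMM, quasi-likelihood, Benjamini-Hochberg, threshold 0.05) with both KO lines pooled, and with DESeq2 1.42.0. CPM values are TMM-scaled. The overlap code was checked against bedtools and the RNA fits were tested on simulated data.

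The members and gene lists were chosen with earlier results of these data known. Genes were named from the 12 longest domains, the lists, the domains of highest and lowest WT share and highest fold, and, since edgeR called none, up to 12 DESeq2 calls each way. Genes named because a call held with each library left out or without the 3 high-collagen libraries, and MSC, were chosen after their values were seen. A few others named by the same choices are left out and not reported here.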

Additional observations from a re-analysis of the deposited data

Results flagged for a closer look

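In 3 of the 37 named genes, 1 of the 5 KO libraries stood far from the other 4 on the log2 CPM scale. For LBX1 it was KO1 replicate 3, at -2.52 (0.0881 CPM), with a gap to the next library of 0.77 of the whole range. For HOXB2 and HOXB3 it was KO2 replicate 1, at 5.32 (39.8 CPM) and 7.75 (215 CPM), with gaps of 0.80 and 0.72. The limit for 5 samples was 0.71, and chance flags about 1 in 20 groups, so a few flags among 37 genes are near what chance gives. The 5 KO libraries also mixed 2 lines and high- and low-collagen cultures, so the limit is only a guide. HOXB2 and HOXB3 are neighbours, so they need not be independent. No difference between KO2 and KO1 passed the edgeR threshold among the domain genes or among all genes (0 and 0 calls).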

How the results depend on the processing

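The number of domains was 860 at a minimum of 4 kb, 268 at 8 kb and 864 with peaks within 1 kb joined, and stayed within 1.5 times of 566 under the other settings. The WT share of the summed length was 90.4%, 92.1% and 93.2% at 4, 6 and 8 kb, 92.6% with at least 50% cover, 90.8% at a −log10 q of 5 or more, 84.7% with peaks joined and 99.2% with whole WT peak lengths. With WT peaks of 5 kb or more as the set, WT length was 102% of the KO cover inside them. That cover was counted only inside the WT peaks, so WT length can only equal or exceed it. The median fold ratio was 0.91, 0.906 and 0.891 at 4, 6 and 8 kb, 0.902 with 50% cover and 0.919 with peaks joined. Genes wholly inside a domain numbered 313. The share of domains with a KO H3K36me3 peak over at least 10% of their length was 0%.

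DESeq2 called 47 domain genes, 16 without the 3 high-collagen libraries, and from 17 to 95 with 1 library left out: 37, 17 and 36 without WT replicates 1 to 3, 62, 31 and 95 without KO1 replicates 1 to 3, and 42 and 23 without KO2 replicates 1 and 2. The share of all genes called moved too, from 1.3% without WT replicate 2 to 8.32% without KO1 replicate 3, against 3.51% and 19.3% of domain genes. edgeR gave 0 calls under every setting run. Without the high-collagen libraries (settings added after seeing the data) FEZF2 turned to 0.02 in both tools, ALX4 to -0.40 in edgeR and -0.42 in DESeq2, and HPSE2 to -0.10 in DESeq2. HOXB3 was 0.03 in KO2 alone. The other values of the 37 named genes kept their direction in each of the settings that gave one. The cause was not tested. With the replicate number as a block the median log2 fold change of domain genes was -0.05 in place of 0.10 and calls stayed at 0. Same-numbered WT and KO1 libraries correlated at 0.07, -0.32 and -0.22, so this check showed no pairing by number. It cannot exclude pairing, since the high-collagen KO1 replicate 2 could hide a shared batch, and KO2 was not checked. Leaving out 1 library gave medians from -0.14 to 0.34.

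Limits: peaks had no replicate, KO depth was 1.67 times that of WT, and folds near a few counts, as for CDKN2A in WT, are imprecise.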

Other observations

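With the 3 high-collagen libraries left out, a choice made after seeing the data, DESeq2 called 7 domain genes higher and 9 lower, from 2 KO1 and 3 WT libraries. VAX1, a homeobox gene of the ventral forebrain and optic stalk, stood at 21.8 and 10.4 CPM in those KO1 libraries and at 1.26, 4.59 and 2.84 CPM in WT (DESeq2 adjusted p = 0.00198), but at 0.224 to 3.47 CPM in the 3 libraries left out. SP5, a WNT-responsive zinc finger gene, had 9.5 and 1.12 CPM against 0.322 to 0.617 CPM in WT (DESeq2 adjusted p = 0.0114). FGF17, a ligand of the midbrain-hindbrain and rostral forebrain organizers, had 228 and 13.8 CPM against 4.72 to 5.83 CPM in WT (DESeq2 adjusted p = 0.0182), so its size rests on KO1 replicate 1. DIO3, the thyroid hormone deiodinase, and LINC01833 were the others besides CDKN2A and EPAS1.

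Lower in the same fit were 4 HOX genes, the antisense RNAs HAGLR and HOXB-AS2, GP1BB, SKOR1 and NGFR. HAGLR, which lies in the HOXD cluster, had 0.152 and 0.0587 CPM in the 2 KO1 libraries and 1.54, 3.7 and 9.81 CPM in WT (DESeq2 adjusted p = 6.88e-06). In the 3 libraries left out it had 1.35 to 2.64 CPM, and with all libraries its adjusted p was 0.238. HAGLR's 10.7 kb domain had a WT share of 96.5% and a KO over WT fold ratio of 0.602. SKOR1, a corepressor of spinal interneurons, had 4.9 and 1.97 CPM against 7.09 to 11.8 CPM in WT (DESeq2 adjusted p = 0.0383). These calls are for KO1 only, since no KO2 library remained.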
